A study of Mus musculus with 24 samples.

Results

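Kupffer cells are the resident macrophages of the liver, and 10 genes that mark them or macrophages in general were followed through the livers of furan-treated and control mice: Clec4f, Vsig4, Cd5l, Timd4, Marco, Csf1r, Cd68, C1qa, C1qb and C1qc. They were chosen by name, and all 10 were among the 24015 gene symbols of the deposited count table. Female B6C3F1 mice, 5 to 6 weeks old when bought, were gavaged for 21 days with furan in corn oil, 8 mg/kg daily, or with corn oil alone, and liver was taken 4 h after the last dose. Furan is a small volatile compound that liver enzymes convert to a reactive aldehyde. Each liver was divided, so that every animal gave a snap-frozen piece, a piece fixed in formalin for 18 h and embedded in paraffin (FFPE 18 h), and a piece fixed for 3 weeks and embedded (FFPE 3 weeks). The 24 libraries therefore form 6 groups of 4, furan and control in each preservation, with furan animals 41, 42, 43 and 44 and control animals 2, 3, 4 and 6.

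Kupffer cells sit in the sinusoids, where they take up particles, bacteria and dying cells from the blood. They depend on the CSF1 receptor for survival, carry lectins and scavenger receptors on their surface, and, with other macrophages, are the main source of the C1q protein that starts the classical complement pathway. When they are lost, blood monocytes can enter the liver and take their place, and such new cells lack Timd4 at first.

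Ribosomal RNA was depleted before sequencing, and RNA integrity numbers were above 8.9 for frozen tissue and 1.3 to 2.4 for fixed tissue. RNA came from a larger piece in frozen liver, 1 section of 10 µm in FFPE 18 h and 2 sections of 10 µm in FFPE 3 weeks, with a different extraction kit for fixed and frozen tissue. Total counts per library were 37978435 to 49326373 in frozen liver, 22889146 to 28054631 in FFPE 18 h and 5560002 to 11019297 in FFPE 3 weeks. Levels below are counts-per-million (CPM), scaled across all 24 libraries, and a gene was called at an adjusted p under 0.05. Markers of hepatocytes summed to 208700 to 235100 CPM in frozen libraries, whereas 11 neutrophil markers summed to 1.85 to 4.00 CPM and 15 lymphocyte markers to 6.98 to 12.2 CPM. All 10 macrophage genes passed the filter on low counts in each comparison.

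The 10 genes covered a wide range of levels. Compared per kilobase of transcript in frozen furan livers, Cd5l was highest at 64.3 ± 5.36 CPM per kb, followed by Clec4f at 51.7 ± 1.65 (SD, n = 4), and the libraries of these genes did not overlap. Vsig4, C1qb and C1qa followed at 34.0 ± 3.72, 33.3 ± 3.06 and 30.7 ± 4.81 CPM per kb, with ranges that overlapped. C1qc had 23.6 ± 2.77, Csf1r 18.8 ± 1.71, Cd68 9.11 ± 1.48, Timd4 7.38 ± 0.55 and Marco 6.20 ± 0.86 CPM per kb. C1qc overlapped C1qa, and Timd4 overlapped both Cd68 and Marco. In frozen control livers Cd5l was also highest (78.0 ± 35.9 CPM per kb) and Marco lowest (7.08 ± 4.30), and every neighbouring pair in that order overlapped except Csf1r and Cd68. Raw counts of single libraries lay between 207 and 10601 in frozen liver, but reached down to 6 in FFPE 3 weeks, for Marco.

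**Figure D1:**
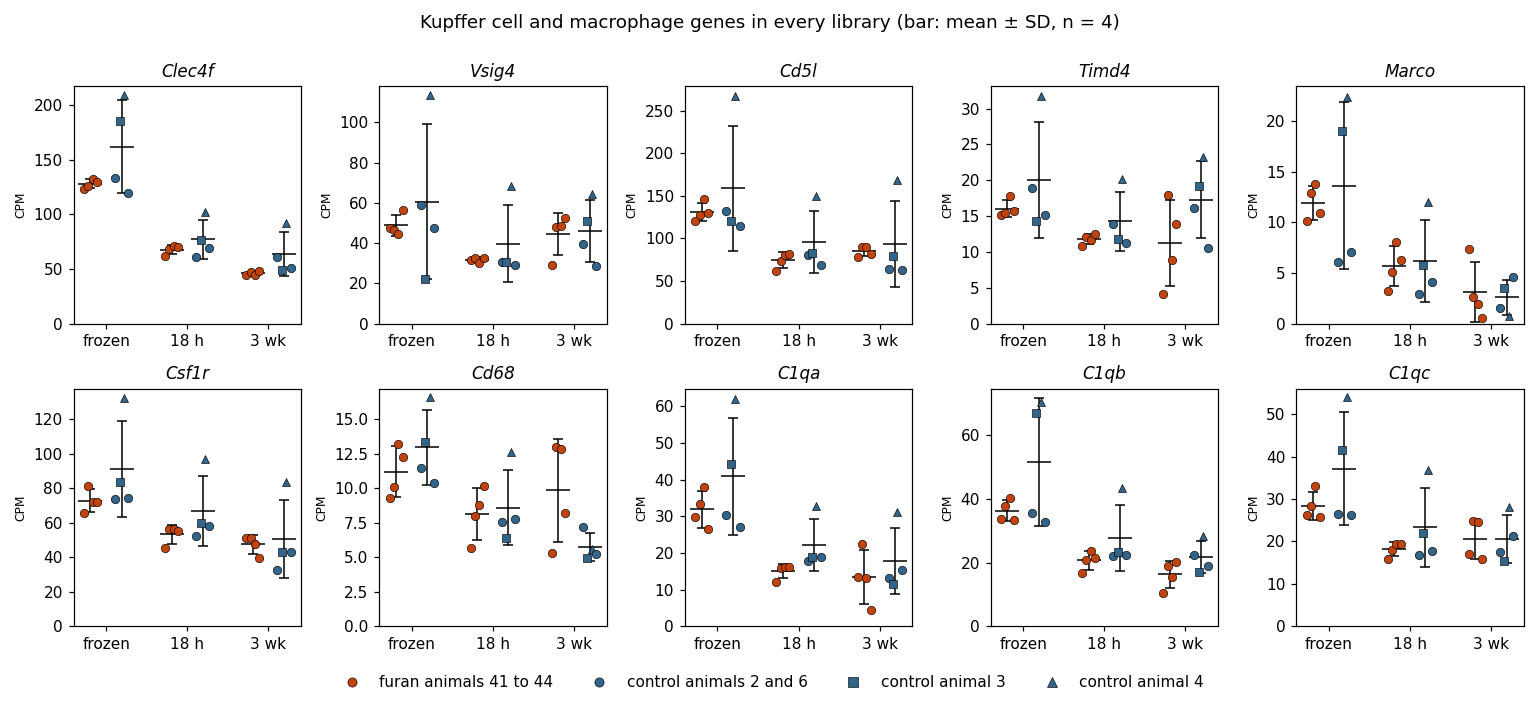
Levels of the 10 macrophage genes in CPM on linear axes, 1 panel per gene, with 1 point per library and bars for the group mean ± SD (n = 4). Squares and triangles mark control animals 3 and 4. Within each preservation the furan libraries stand left of the control libraries. In frozen liver Clec4f lay between 123 and 133 CPM in furan livers and between 119.8 and 209 CPM in control livers.

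Clec4f is a galactose-binding C-type lectin found in mice on Kupffer cells. In frozen liver it had 123, 126, 133 and 129.7 CPM in furan animals 41 to 44, against 134, 185, 209 and 119.8 CPM in control animals 2, 3, 4 and 6. The furan animals were tightly grouped, and control animal 6 lay below all of them while animals 3 and 4 lay well above. In bulk tissue, fewer Kupffer cells and less RNA per cell cannot be told apart in such values. Its log2 fold change was -0.33 ± 0.17 (SE; 95% interval -0.70 to 0.04), with an adjusted p of 0.328 by edgeR's quasi-likelihood test with Benjamini-Hochberg adjustment.

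Vsig4 is a complement receptor that lets Kupffer cells capture particles coated with C3 fragments. In frozen liver it had 47.4, 46.5, 44.6 and 56.5 CPM in furan animals, against 59.1, 22.4, 113 and 47.6 CPM in control animals. Control animals 3 and 4 gave the lowest and the highest values of all 8 livers, so the furan group lay inside the control range. Cd5l, a scavenger protein secreted by tissue macrophages, had 120.1, 128, 146 and 129 CPM in furan animals, against 132, 120.5, 268 and 115 CPM in control animals. Without animal 4 the remaining control livers covered much the same range as the furan livers. Timd4, a phosphatidylserine receptor for dying cells, had 15.1, 15.4, 17.8 and 15.7 CPM in furan animals, against 18.9, 14.3, 31.8 and 15.1 CPM in control animals. Again only control animal 4 lay far from the other livers. The log2 fold changes in frozen liver were -0.30 ± 0.36 for Vsig4, -0.27 ± 0.24 for Cd5l and -0.31 ± 0.23 for Timd4.

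Marco, a class A scavenger receptor for bacteria and particles, had 10.1, 12.9, 13.8 and 11 CPM in frozen furan livers, against 6.09, 19.0, 22.4 and 7.05 CPM in frozen control livers. The controls split into a low pair, animals 2 and 6, and a high pair, animals 3 and 4, with all furan livers between them. Csf1r, the receptor for CSF1 and IL-34, had 65.6, 81.6, 72.0 and 71.9 CPM in furan livers, against 73.9, 83.9, 133 and 74.4 CPM in control livers. In the RefSeq annotation a long non-coding RNA gene and a microRNA gene overlap Csf1r, and the strand used in counting is not given in the sources used here. Cd68, a glycoprotein of macrophage lysosomes, had 9.27, 10.1, 13.2 and 12.2 CPM in furan livers, against 11.5, 13.4, 16.6 and 10.4 CPM in control livers. The groups overlapped for all 3 genes, and the log2 fold changes were -0.19 ± 0.37 for Marco, -0.31 ± 0.18 for Csf1r and -0.20 ± 0.18 for Cd68.

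C1qa, C1qb and C1qc encode the 3 chains of C1q. In frozen liver C1qa had 29.7, 33.3, 38.1 and 26.4 CPM in furan animals, against 30.2, 44.3, 62.0 and 27.1 CPM in control animals. C1qb had 33.6, 37.7, 40.3 and 33.4 CPM in furan animals, against 35.5, 67.1, 70.6 and 32.9 CPM in control animals. C1qc had 26.2, 28.3, 33.1 and 25.8 CPM in furan animals, against 26.6, 41.6, 54.1 and 26.3 CPM in control animals. In each chain control animals 2 and 6 fell within or beside the furan range and animals 3 and 4 were above it. C1qb had the largest difference of the 10 genes in frozen liver, a log2 fold change of -0.50 ± 0.24 (95% interval -1.03 to 0.03, adjusted p = 0.302 by edgeR).

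None of the 10 genes was called in frozen liver by edgeR, where 2.78% of all 14122 genes tested were called, and none had an unadjusted p under 0.05, against 18.4% of all genes. DESeq2 also called 0 of them, against 7.69% of the 13845 genes to which it gave an adjusted p. All 10 log2 fold changes were below 0, against 51.8% of all genes, and their median was -0.31, beside -0.01 over all genes. The 10 values come from the same 8 livers, so the shared sign is not 10 separate observations. Without control animal 4 the median was -0.07, and the signs of Vsig4, Cd5l, Timd4 and Marco turned, to 0.19, 0.11, 0.00 and 0.16, with none called. Without control animal 3 Marco alone turned, to 0.02.

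C1qa had, in FFPE 18 h, 12, 15.8, 16.1 and 16.1 CPM in furan livers, against 17.9, 18.9, 32.8 and 19.0 CPM in control livers. C1qa alone among the 10 genes had furan libraries wholly below the control libraries, as did 9.84% of all genes in that comparison. Its log2 fold change was -0.56 ± 0.20 (95% interval -1.0 to -0.13), with an unadjusted p of 0.0157 and an adjusted p of 0.0809 by edgeR. DESeq2 called it (adjusted p = 0.0143), with 18.3% of all genes, and so did edgeR after all libraries were thinned to the lowest total (adjusted p = 0.0442), with 13.7% of all genes. Over all alternatives its adjusted p ran from 0.0143 to 0.677, and its log2 fold change without control animal 4 was -0.33.

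C1qb, the partner chain, had 16.7, 20.9, 23.7 and 21.4 CPM in FFPE 18 h furan livers, against 22.1, 23.2, 43.4 and 22.3 CPM in control livers. Animal 43 overlapped the controls, and the log2 fold change was -0.42 ± 0.25. Clec4f had 61.9, 67.9, 70.7 and 69.7 CPM in furan livers, against 61.4, 76.4, 102 and 69.2 CPM in control livers. Vsig4 had 31.7, 32.8, 29.9 and 32.6 CPM in furan livers, against 30.5, 30.7, 68.4 and 28.9 CPM in control livers. For Vsig4, 7 of the 8 livers stood within a few CPM of each other and control animal 4 stood alone. edgeR called 0 of the 10 genes and 15.5% of all genes, and 1 gene, C1qa, had an unadjusted p under 0.05, against 28.9% of all genes. All 10 log2 fold changes were below 0, against 50.4% of all genes. Their median was -0.32, beside 0.00 over all genes, and -0.06 without control animal 4.

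In FFPE 3 weeks Clec4f had 44.1, 47.4, 44.4 and 48.3 CPM in furan livers, against 60.7, 49.0, 92.5 and 51.3 CPM in control livers. The groups did not overlap, as was so in this direction for 4.71% of all genes, although control animal 3 lay close to furan animal 44. The log2 fold change was -0.44 ± 0.19, with an unadjusted p of 0.0252 and an adjusted p of 0.286 by edgeR, and it was -0.21 without control animal 4. Cd68 stood on the other side, with 5.33, 13.0, 12.9 and 8.17 CPM in furan livers, against 7.20, 4.96, 5.61 and 5.21 CPM in control livers. Furan animal 41 stayed among the controls and the others were above them, giving a log2 fold change of 0.78 ± 0.45 (adjusted p = 0.530 by edgeR).

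Timd4 in FFPE 3 weeks had 4.11, 17.9, 8.94 and 13.9 CPM in furan livers, against 16.2, 19.3, 23.3 and 10.5 CPM in control livers, a wide scatter at this depth. Its log2 fold change was -0.62 ± 0.38. Marco, with counts down to 6 in a library, had 7.35, 2.63, 1.96 and 0.52 CPM in furan livers, against 1.51, 3.47, 0.76 and 4.57 CPM in control livers. DESeq2 called 0 of the 10 genes, against 6.91% of the 7194 genes to which it gave an adjusted p. edgeR also called 0 of the 10, against 2.58% of all genes. Clec4f alone had an unadjusted p under 0.05, against 12.4% of all genes. The log2 fold change was below 0 for 7 of the 10 genes, against 48.7% of all genes, with a median of -0.10 beside 0.01 over all genes and 0.10 without control animal 4.

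**Figure D2:**
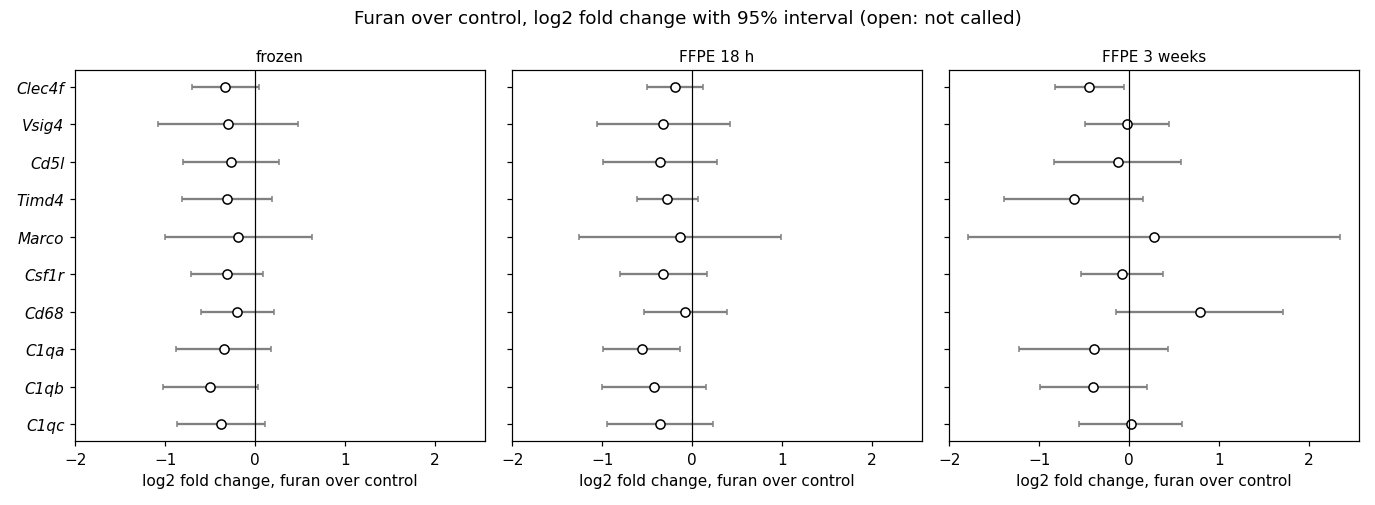
Log2 fold change of furan over control for each of the 10 genes in the 3 preservations, with 95% intervals from edgeR. Each interval includes 0 except those of C1qa in FFPE 18 h (-1.0 to -0.13) and Clec4f in FFPE 3 weeks (-0.83 to -0.06), and no gene was called after adjustment.

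The furan effects were also compared between preservations by an interaction term in edgeR. That fit had no term for the animal, so pieces of the same liver were treated as independent. None of the 10 genes, and none of all genes tested, was called for FFPE 18 h against frozen, FFPE 3 weeks against frozen or FFPE 3 weeks against FFPE 18 h (0% in each). DESeq2 called 0 of the 10 genes in each, and 0, 9 and 25 of all genes. Cd68 gave the only unadjusted p under 0.05, 0.0301 for FFPE 3 weeks against frozen, with a difference of 0.97 ± 0.42 on the log2 scale. In that comparison 4.1% of all genes had an unadjusted p under 0.05, and in the other comparisons, where 0 of the 10 genes did, 1.61% (FFPE 18 h against frozen) and 5.31% (FFPE 3 weeks against FFPE 18 h).

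Control animal 4 was the highest of the 8 animals for all 10 genes in frozen liver, for all 10 in FFPE 18 h and for 8 in FFPE 3 weeks, where Marco and Cd68 were the exceptions. Among all genes, 8.01%, 14% and 14.3% were highest in this animal in frozen, FFPE 18 h and FFPE 3 weeks. In all 3 pieces of its liver, 8 of the 10 genes were highest, against 146 of 12804 genes measured in every piece (1.14%). The choice of this animal was made after its values were seen, and no test was made of it. Its level over the mean of the other controls ran from 1.42 times (Cd68) to 2.64 times (Vsig4) in frozen liver, with a median of 1.78.

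The sum over the 10 genes was 980.5 CPM in the frozen piece of control animal 4, against 475.5 to 611.9 CPM in the other controls and 480.5 to 551.3 CPM in the furan livers. It was 574.7 CPM in its FFPE 18 h piece, against 305.5 to 337.6 CPM in the other controls, and 527.1 CPM in its FFPE 3 weeks piece, against 262.0 to 293.7 CPM. The furan livers had 265.3 to 326.1 CPM in FFPE 18 h and 261.2 to 336.3 CPM in FFPE 3 weeks. In every piece the sum of the remaining controls overlapped that of the furan livers. General macrophage genes, 22 in the list, summed to 905.4 CPM in its frozen piece, against 533.0 to 582.3 CPM in the other controls. The sum of the 15 other Kupffer cell identity genes stood out less, with 1253 CPM in its frozen piece, against 980.5 to 1164 CPM. Over the mean of the other frozen controls this was 1.2 times, beside 1.6 times for general macrophage genes and 1.82 times for the 10 genes. For the other identity genes it was 1.17 times in FFPE 18 h and 1.18 times in FFPE 3 weeks. The most abundant of these in FFPE 3 weeks were Slc40a1, Hpgd and Sdc3, with mean log2 CPM of 8.45, 7.32 and 6.43. The sum rests mainly on such genes and says little of the less abundant ones. Sinusoidal endothelial genes summed to 1369 CPM in its frozen piece, inside the 1349 to 1391 CPM of the other controls.

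Other immune lists were set beside these for the same animal. T, B and NK cell markers summed to 12.2 CPM in its frozen piece and 10.98 CPM in its FFPE 18 h piece, above the 7.76 to 9.45 CPM and 7.07 to 9.10 CPM of the other controls. In its FFPE 3 weeks piece they summed to 10.7 CPM, inside the 5.69 to 18.5 CPM of the others. Dendritic cell markers summed to 25.6 CPM in its frozen piece, above the 18.2 to 22.3 CPM of the other controls. They were inside the range of the others in FFPE 18 h (33.0 CPM, against 29.2 to 34.1 CPM) and FFPE 3 weeks (44.2 CPM, against 31.7 to 45.6 CPM). Genes of monocytes and recruited macrophages summed to 1562 CPM in its frozen piece, below the 1603 to 1840 CPM of the other controls. They summed to 841.3 CPM in FFPE 18 h, within 833.0 to 970.5 CPM, and in FFPE 3 weeks to 661.5 CPM, within 616.5 to 758.2 CPM. Arg1 had a mean log2 CPM of 9.53 in FFPE 3 weeks, far above Spp1, the next tested gene of this list, at 4.76. The sum there was mainly that of Arg1 and says little of the other genes in the list. The part of animal 4 in the furan differences is given by the values without it, and why its levels were high was not tested.

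**Figure D3:**
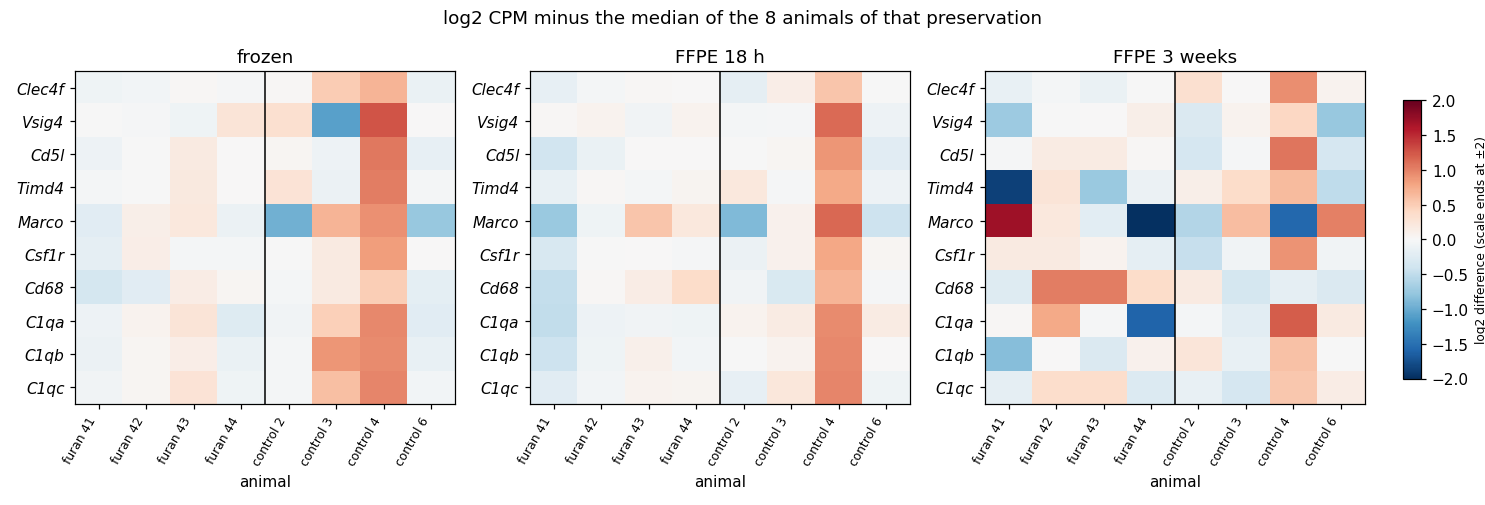
Levels of the 10 genes in each animal and piece, as log2 CPM minus the median of that gene over the 8 animals in the same preservation, furan animals left and control animals right. Control animal 4 is highest for 10, 10 and 8 of the 10 genes in frozen, FFPE 18 h and FFPE 3 weeks.

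The pieces of a liver could be compared because each animal gave 3. Between the frozen and FFPE 18 h pieces, the correlation of log2 CPM over 8 animals had a median Pearson r of 0.84 for the 10 genes, beside 0.43 over all 12804 genes. The 10 genes gave 30 relations over the pairs of preservations, each adjusted over all genes of its pair. For this pair, 9 of the 10 genes had an exact permutation p under 0.05 before adjustment, against 24.4% of all genes. After adjustment 2 of the 10 passed, against 5.12% of all genes. Those that passed were Csf1r, with r = 0.97 (exact permutation p = 0.00216, adjusted p = 0.0462) and Spearman's rho = 0.83 (exact p = 0.0154, adjusted p = 0.125), and C1qc, with r = 0.92 (exact permutation p = 0.00255, adjusted p = 0.0499) and rho = 0.74 (exact p = 0.0458, adjusted p = 0.205). Without the 2 animals farthest from the median, animals 3 and 4 for both genes, r was 0.73 for Csf1r and 0.53 for C1qc. Clec4f kept no relation without them, with r = -0.08 beside 0.86 over all 8 animals. Without animal 4 alone the median r was 0.59 for the 10 genes, beside 0.425 over all genes.

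The relations to FFPE 3 weeks were weaker, with a median r of 0.42 to the frozen piece and 0.61 to the FFPE 18 h piece, and 0 of the 10 genes passed in either by the exact permutation test, against 0% and 1.16% of all genes. Before adjustment 1 gene had p under 0.05 for the frozen piece and 2 for the FFPE 18 h piece, against 11.6% and 15.4% of all genes. Over all genes the median r was 0.213 to the frozen piece and 0.261 to the FFPE 18 h piece. Without animal 4 the medians were 0.04 and 0.07 for the 10 genes, beside 0.215 and 0.268 over all genes. Furan and control animals are pooled in these relations. Control animal 3 is a case of disagreement between pieces: Vsig4 was 22.4 CPM in its frozen piece, the lowest of 8 animals, but 30.7 and 50.8 CPM in its FFPE 18 h and FFPE 3 weeks pieces, inside the range of the other animals.

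The spread between animals was also compared between the groups. In frozen liver the SD of log2 CPM was smaller in the furan group than in the control group for all 10 genes, with a median of 0.14 in furan and 0.53 in control livers, and 74.1% of all genes also had the larger SD in controls. In FFPE 18 h the median SD was 0.17 in furan and 0.45 in control livers, larger in controls for all 10 genes, against 49.3% of all genes. In FFPE 3 weeks it was 0.40 in furan and 0.50 in control livers, larger in controls for 5 genes, against 51.5% of all genes. With control animal 4 left out, the control SD was the larger for 7 of the 10 genes in frozen liver, 3 in FFPE 18 h and 4 in FFPE 3 weeks, against 74.3%, 44.2% and 46% of all genes. In frozen liver the SD of Vsig4 was then 0.15 in furan and 0.73 in control livers, and that of C1qb 0.13 and 0.57. That of Cd5l was 0.12 in furan and 0.10 in control livers. Control animal 3 stood apart there, with 22.4 CPM of Vsig4, against 59.1 and 47.6 CPM in animals 2 and 6. For C1qb it had 67.1 CPM, against 35.5 and 32.9 CPM. Its frozen library detected 15249 genes, against 16045 to 16781 in the other frozen libraries. The part of that library in the spread was not tested.

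Likeness between genes was measured from Clec4f and from C1qa. After subtraction of each group's mean, the genes most like Clec4f over the 24 libraries, of all genes with a mean log2 CPM of at least 1, were C1qb (Pearson r = 0.85), C1qc (0.83), Cd5l (0.82) and Csf1r (0.80), in that order. The non-members most like it were Siglec1 (0.80), Aif1 (0.79), Ctss (0.77), Cd74 (0.77) and Tecpr2 (0.76), of which the first 3 are macrophage genes and Cd74 is a chaperone of antigen presentation. The median over all genes was -0.03. The other members were further from Clec4f. C1qa (0.62), Timd4 (0.49), Cd68 (0.47) and Vsig4 (0.45) ranked 111, 477, 560 and 654 of 11292 genes. Marco had r = 0.11 with Clec4f, rank 3940, and so was the least like it of the members. For C1qa the most alike non-members were Entpd1 (0.88), Siglec1 (0.85), Rgl1 (0.83), Coro1a (0.82) and Dchs1 (0.82), and its partner chains had r = 0.81 (C1qc) and 0.47 (C1qb). Its lowest values among the members were those of Vsig4 (0.25) and Timd4 (0.27). The 24 libraries share 8 animals, and control animal 4 gives 3 of the points.

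Promoters are shown for Clec4f and for C1qb and C1qc, the genes most like Clec4f by that measure. Macrophage genes are commonly bound by PU.1, which recognises a GAGGAA core, and by MAF family factors, whose binding site contains TGCTGA. Both motifs were searched on both strands of the RefSeq promoters (GRCm38.p6), 250 bases before to 50 after the start of each gene, and capitals mark the matches. The table gave promoters for 8 of the 10 genes. Csf1r and C1qa are named only.
Clec4f lies at chr6:83656067-83656366, minus strand, and C1qb and C1qc lie near each other at chr4:136886151-136886450 and chr4:136892865-136893164, both minus strand.
Clec4f: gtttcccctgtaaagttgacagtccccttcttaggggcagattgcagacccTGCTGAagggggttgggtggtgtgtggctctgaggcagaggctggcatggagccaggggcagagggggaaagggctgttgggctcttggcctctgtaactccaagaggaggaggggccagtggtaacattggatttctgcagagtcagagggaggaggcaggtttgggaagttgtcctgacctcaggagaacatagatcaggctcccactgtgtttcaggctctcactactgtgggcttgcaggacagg
C1qb: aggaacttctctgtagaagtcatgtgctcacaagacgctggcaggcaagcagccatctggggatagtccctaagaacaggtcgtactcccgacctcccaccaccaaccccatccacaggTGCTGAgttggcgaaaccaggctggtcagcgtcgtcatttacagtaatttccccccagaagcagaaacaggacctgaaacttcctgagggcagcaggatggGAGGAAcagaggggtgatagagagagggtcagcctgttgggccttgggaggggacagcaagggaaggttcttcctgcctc
C1qc: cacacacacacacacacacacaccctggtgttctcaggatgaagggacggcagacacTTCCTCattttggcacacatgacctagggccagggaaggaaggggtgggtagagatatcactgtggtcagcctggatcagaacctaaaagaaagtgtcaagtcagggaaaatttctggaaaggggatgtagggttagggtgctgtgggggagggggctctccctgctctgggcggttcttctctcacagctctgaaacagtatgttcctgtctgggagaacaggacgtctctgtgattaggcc

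GAGGAA or its complement was in 6 of the 8 promoters, against 28.3% of 32851 mouse promoters in the table. It was found in C1qb, C1qc, Cd5l, Cd68, Marco and Vsig4, and the match of C1qb began 30 bases before the start. TGCTGA or its complement was in 5 of the 8, against 19.5% of all promoters, namely C1qb, Cd5l, Clec4f, Timd4 and Vsig4. C1qb held both motifs, while C1qc held only the first and Clec4f only the second in these windows. The motifs shared no bases in these promoters. These are matches of letters and say nothing of binding.

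The other lists of genes give the surroundings of these 10. Of all genes tested for furan by edgeR, 1.2% were called lower and 1.57% higher in frozen liver. The shares were 7.72% lower and 7.82% higher in FFPE 18 h, and 1.51% lower and 1.07% higher in FFPE 3 weeks. The counts called in each list below are to be read beside these shares. None of 15 other Kupffer cell identity genes was called in frozen or FFPE 3 weeks liver by edgeR, with medians of -0.18 and -0.08. In FFPE 18 h, 2 were lower, Hpgd, a prostaglandin-degrading enzyme (141 ± 14.5 CPM in furan and 169 ± 9.83 CPM in control livers, log2 fold change -0.26 ± 0.07, adjusted p = 0.0234), and Fcna, a ficolin of the lectin pathway (21.7 ± 1.61 CPM in furan and 27.4 ± 3.08 CPM in control livers, -0.33 ± 0.10, adjusted p = 0.0285). Of 22 general macrophage genes, 21, 20 and 20 were tested in frozen, FFPE 18 h and FFPE 3 weeks, and 0 were called in each, with medians of -0.12, -0.16 and -0.06.

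Genes of monocytes and recruited macrophages summed to 1508 to 1672 CPM in frozen furan livers, against 1562 to 1840 CPM in frozen control livers. Arg1, by far the most abundant gene of the list in FFPE 3 weeks (mean log2 CPM 9.53, beside 4.76 for Spp1), is part of these sums. They are therefore not to be read as a level of monocytes or recruited macrophages. Mmp12, the macrophage metalloelastase, was the 1 gene of 17 tested that was called in frozen liver, where it rose to 10.4 ± 6.17 CPM in furan livers, against 0.385 ± 0.25 CPM in control livers (log2 fold change 4.71 ± 0.55, adjusted p = 0.00184). In FFPE 18 h it was called again (4.44 ± 0.56, adjusted p = 0.000245), with Cd63, a tetraspanin of late endosomes (2.04 ± 0.39, adjusted p = 0.00162), and 13 of 15 were not called. None of 13 tested was called in FFPE 3 weeks. Mmp12 there had 6.15 ± 2.40 CPM in furan livers, against 0.747 ± 0.908 CPM in control livers. Its log2 fold change was 3.04 ± 1.06 (adjusted p = 0.145 by edgeR). The list's median log2 fold changes were 0.19, 0.32 and 0.41 in frozen, FFPE 18 h and FFPE 3 weeks, and 5 of 17, 3 of 15 and 4 of 13 tested genes were below 0. Mmp12 differed between furan and control livers in the frozen piece in which the resident macrophage genes were not called, but the difference between those results was not tested.

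C1q acts with the C1 proteases and later complement proteins. Of 14 such genes, 2 were called lower in frozen liver, C2 (122 ± 4.44 CPM in furan and 168 ± 11.5 CPM in control livers, log2 fold change -0.44 ± 0.10, adjusted p = 0.0420) and Serping1, the C1 inhibitor (648 ± 30.4 CPM in furan and 987 ± 180 CPM in control livers, -0.60 ± 0.14, adjusted p = 0.0421). Hepatocytes are the main source of both in liver. In FFPE 18 h 6 were lower and C4bp, an inhibitor of the classical pathway, was higher (0.31 ± 0.06, adjusted p = 0.00121), and in FFPE 3 weeks 4 were lower, among them C3 (-0.34 ± 0.08, adjusted p = 0.0104). The C1q chains themselves were not called by edgeR in any of these furan comparisons at full depth.

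Receptors for dying cells and their bridging proteins, the functional neighbours of Timd4, had 1 gene of 12 lower in frozen liver, Stab2, 4 lower and 1 higher (Cd36) of 12 in FFPE 18 h, and 0 of 11 called in FFPE 3 weeks. CSF1 receptor ligands and related receptors, 6 tested in each preservation, were not called in any. Sinusoidal endothelial markers, cells that neighbour Kupffer cells, summed to 1065 to 1102 CPM in frozen furan livers, against 1349 to 1391 CPM in frozen control livers, and Stab2 alone of 15 was called there. Of the 15, 8 were called lower in FFPE 18 h, against 7.72% of all genes, among them Stab2, Flt4, Eng and Oit3. In FFPE 3 weeks 0 were called. The part of these cells in the levels of the 10 genes was not tested. Of 11 hepatocyte markers 0 were called in frozen liver. In FFPE 18 h Hnf4a was called higher and Apoa1 and Pck1 lower, and in FFPE 3 weeks Pck1 alone was called, also lower.

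Most of the 10 genes were lower in the fixed pieces than in the frozen pieces of the same livers. The main fit between preservations had no term for the animal, so its p-values ignore that pairing. Over furan and control livers together, 9 of the 10 were called lower in FFPE 18 h than in frozen liver by edgeR, against 27.3% of all genes, with a median log2 fold change of -0.71 beside 0.01 over all genes. Clec4f was lower by log2 -0.99 ± 0.11 (adjusted p = 2.85e-07), and its FFPE 18 h and frozen libraries, alone among the 10 genes, did not overlap, against 9.03% of all genes. C1qa (-0.98 ± 0.16) and Marco (-1.10 ± 0.31) were about as far apart, and Timd4 (-0.46 ± 0.15) and Csf1r (-0.45 ± 0.13) were closest. Vsig4 (-0.61 ± 0.27, adjusted p = 0.0665) was not called, but was called with the animal as a block (adjusted p = 0.00138), a fit that called 29.1% of all genes lower. Marco was not called without control animal 3 (-0.99, adjusted p = 0.0522).

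In FFPE 3 weeks against frozen liver 8 of the 10 were called lower, against 25.8% of all genes, and the median was -0.68 beside -0.02. Marco was lowest at -2.13 ± 0.42 (adjusted p = 0.000201), followed by Clec4f at -1.38 ± 0.13, C1qa at -1.21 ± 0.26 and C1qb at -1.17 ± 0.18. The libraries of Clec4f and C1qb did not overlap, against 11.7% of all genes. Vsig4 (-0.23 ± 0.24) and Timd4 (-0.33 ± 0.24) were not called. Of the 11 hepatocyte markers, 9 were lower in FFPE 18 h and 11 in FFPE 3 weeks, with medians of -0.72 and -1.40. Extraction kit, tissue amount, RNA integrity and depth go with the preservation and cannot be told apart from it.

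These shifts are relative to the scaling. With total counts alone, an alternative chosen after seeing the data, the median of all genes was 0.34 in FFPE 18 h against frozen and 0.40 in FFPE 3 weeks against frozen, and 3 and 4 of the 10 genes were called, all lower, against 10.5% and 13% of all genes called lower. The calls over all genes were then 7204 higher and 1561 lower in FFPE 18 h, and 5651 higher and 1853 lower in FFPE 3 weeks. With the scaling used above they were 3952 higher and 4054 lower in FFPE 18 h, and 3275 higher and 3677 lower in FFPE 3 weeks. The distance of the members' median from that of all genes was -0.73 and -0.67 with that scaling, and -0.72 and -0.66 with the scaling used above. In FFPE 3 weeks against FFPE 18 h, 1 of the 10 genes was called, Clec4f (-0.40 ± 0.11, adjusted p = 0.00793), against 17.5% of all genes called lower, and 0 were called with total counts alone, against 13% of all genes called lower. All genes gave 2783 higher and 1880 lower calls with that scaling, and 2142 higher and 2522 lower with the scaling used above. With the animal as a block 4 were called: Clec4f, Csf1r (-0.29, adjusted p = 0.00888) and Marco (-1.24, adjusted p = 0.0378) were lower and Vsig4 was higher (0.37, adjusted p = 0.00534), while 21.4% of all genes were called lower and 14.5% higher.

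**Figure D4:**
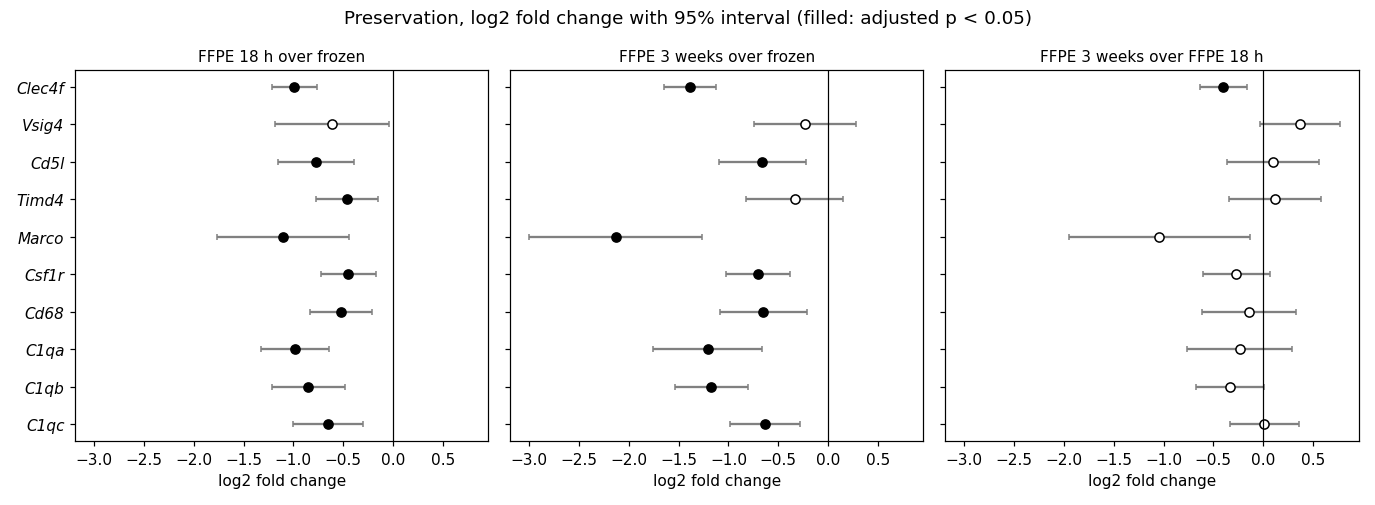
Log2 fold change between preservations for the 10 genes, fixed over frozen and FFPE 3 weeks over FFPE 18 h, with 95% intervals from edgeR, a line at 0 and filled points for called genes. Clec4f was called in all 3 comparisons (-0.99, -1.38 and -0.40).

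Ratios between genes within a library were also compared across the pieces. The log2 ratio of Timd4 to Clec4f in furan livers was -3.0 ± 0.07 in frozen, -2.52 ± 0.06 in FFPE 18 h and -2.23 ± 0.88 in FFPE 3 weeks pieces, and in control livers -3.05 ± 0.44, -2.45 ± 0.25 and -1.88 ± 0.39 (SD, n = 4 each). The FFPE 18 h and frozen libraries did not overlap in this ratio in either group. Of the FFPE 3 weeks furan libraries, that of animal 41, with 47 Timd4 counts, lay at -3.42, below the frozen furan range of -3.04 to -2.9. The others lay above that range. No test was made of these ratios. Between furan and control livers of 1 preservation the ratio differed by less than the SD of the more variable group. The log2 ratio of C1qa to C1qb was -0.46 ± 0.07 in furan and -0.31 ± 0.07 in control livers in FFPE 18 h, but -0.19 ± 0.11 in furan and -0.32 ± 0.19 in control livers in frozen tissue, so the furan and control values stood in opposite order. That of Cd68 to Csf1r was -2.71 ± 0.26 in furan and -2.79 ± 0.16 in control livers in frozen tissue, and -2.35 ± 0.63 in furan and -3.06 ± 0.70 in control livers in FFPE 3 weeks.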

How the data were processed

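Liver RNA of 8 mice, each divided into 3 pieces, gave 24 libraries. The authors deposited raw counts per gene symbol. Per the submitters' processing notes, CASAVA 1.8.2, STAR 2.3.0, featureCounts 1.4.4 and the mm9 genome build were used; gene models, strand and handling of multiply mapped reads are not given in the sources used here. From these counts, edgeR 4.0.16 (R 4.3.3) gave TMM scaling, the default filter on low counts and a two-sided quasi-likelihood test, with Benjamini-Hochberg adjustment over all genes tested. Levels are CPM computed from the counts. Each preservation was fitted alone for furan against control. The main fits between preservations and of the interactions had no animal term. Correlations used exact permutation of animals (scipy 1.17.1).

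The members and lists were chosen with earlier results of these data known. All 10 members are named, with up to 4 called genes per other list and furan comparison, those with the smallest p. The list of genes most like Clec4f and C1qa follows a stated rule: the 5 non-members of highest correlation.

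The labels say that pieces with the same number come from 1 liver, so animals pair the samples across preservations. Deviations of same-numbered pieces correlated at 0.0425 to 0.371 (FFPE 18 h and frozen), 0.0166 to 0.119 (FFPE 3 weeks and frozen) and 0.049 to 0.115 (FFPE 3 weeks and FFPE 18 h). A piece correlated best with the other piece of its own animal for 7, 8 and 8 of the 8 animals, compared within a treatment; the exception was control animal 3 (0.0425, against 0.058 with another animal). The scripts were tested on simulated data. Alternatives were DESeq2 1.42.0 and its size factors, no filter, thinning to 5560002 counts, a fit over all 24 libraries, an animal block, total-count scaling and leaving out each animal. Counts carry no molecular identifiers, so precision is that of reads. Promoter sequences are from RefSeq (GRCm38.p6), matched by symbol, and transcript lengths from GENCODE transcripts of GRCm38.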

Additional observations from a re-analysis of the deposited data

Results flagged for a closer look

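Of 60 groups of 4 libraries (10 genes in 6 groups), 10 had a library far from the other 3 by Dixon's criterion, which chance gives for about 1 in 20 groups. Control animal 4 was far above the other 3 controls in 8 of these. In frozen liver it had 268 CPM of Cd5l, against 115 to 132 CPM in the others, and 133 CPM of Csf1r, against 73.9 to 83.9 CPM. In FFPE 18 h it had 68.4 CPM of Vsig4, against 28.9 to 30.7 CPM, 149 CPM of Cd5l, against 69.3 to 82.7 CPM, 96.8 CPM of Csf1r, against 52.2 to 59.8 CPM, 32.8 CPM of C1qa, against 17.9 to 19.0 CPM, and 43.4 CPM of C1qb, against 22.1 to 23.2 CPM. In FFPE 3 weeks it had 169 CPM of Cd5l, against 63.5 to 79.3 CPM. Furan animal 41 was far below the other 3 furan livers in FFPE 18 h for Csf1r, at 45.2 CPM against 55.3 to 56.6 CPM, and for C1qa, at 12 CPM against 15.8 to 16.1 CPM. The flags on 1 library and 1 animal are not separate events.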

How the results depend on the processing

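The number of the 10 genes called changed under few settings. For furan in FFPE 18 h it was 0, but 1 with DESeq2 and 1 after thinning (C1qa). With total counts alone it was 3 in FFPE 18 h against frozen, 4 in FFPE 3 weeks against frozen and 0 in FFPE 3 weeks against FFPE 18 h, where the animal block gave 4. Leaving out 1 animal at a time gave 9 to 10, 8 to 8 and 1 to 3 in these comparisons, and 0 for furan in each preservation and for each interaction. The animal block changed no other call apart from Vsig4 in FFPE 18 h against frozen. Of 1200 values of single genes under an alternative, 1102 kept their direction and side of the threshold, 74 changed sign while uncalled, 12 lost a call and 12 gained 1. No called value changed sign. The cause of these changes was not tested. The count of all genes called for furan varied more: in frozen liver it was 392, with 99 to 1148 when 1 animal was left out. With total counts alone the calls over all genes were 262 higher and 128 lower in frozen liver, beside 222 and 170, and 176 higher and 164 lower in FFPE 3 weeks, beside 139 and 196.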
